A study of Arabidopsis thaliana with 4 samples.

Results

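The 5 rows described here lie on the other strand of 5 nuclear genes of photosynthesis in Arabidopsis thaliana, and 3 of them are the highest rows of the whole table by mean level over the libraries. They were taken by locus code, 5 of 32823 rows. AT2G08665 lies opposite LHCB1.5 (listed as LHB1B2), AT4G28755 opposite PSAE1, AT1G55673 opposite PSAG, AT1G05207 opposite LHCB6 and AT1G05253 opposite HCF173. They were chosen by their measured level and their lower values after heat in these same libraries, so levels and heat differences are given as a description. The libraries came from whole seedlings of the ecotype Col-0, grown at 22 °C with 16 h light and 8 h dark at a light intensity of 100 μmol per square metre per second. The groups were wild type (WT) without heat, WT with heat, an overexpressor of the microRNA miR164 (miR164OE) without heat and miR164OE with heat, with 1 library each. The libraries without heat are labelled as controls. Heat meant 35 °C for 5 days from an age of 5 days. The sources used here do not give the age of the control seedlings, the promoter of the transgene or the number of transgenic lines.

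LHCB1.5 encodes a chlorophyll a/b-binding protein of LHCII, the main antenna that feeds light energy to photosystem II. LHCB6, also known as CP24, is a minor antenna protein between LHCII and the core of photosystem II. PSAE1 and PSAG encode subunits of photosystem I. PsaE sits on the stromal side where ferredoxin docks, and PsaG is a membrane subunit at the edge that binds the antenna of photosystem I. HCF173 is needed for the translation of the plastid psbA messenger RNA, which encodes the D1 protein of photosystem II. Transcripts from the other strand of a gene are known as natural antisense transcripts, and a library that keeps strand information is needed to tell them from the messenger RNA. These libraries were made with a strand-specific kit, per the labels. The sources used here do not state the strand setting used in counting. Whether the fragments on the 5 rows came from antisense RNA or from the messenger RNA of the genes opposite was not tested. The same limit holds for the own rows of all genes given below, whose values are the listed ones and were not checked against the strand.

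A stretch of 120 bases of each row is printed here because the position opposite coding sequence is what the 5 rows share. Each is written 5′ to 3′ along the strand of the row, from the RefSeq genome TAIR10.1, with the coordinates chr2:14523394-14523513 (plus strand) for LHCB1.5, chr4:14203769-14203888 (plus) for PSAE1, chr1:20803237-20803356 (plus) for PSAG, chr1:5723161-5723280 (minus) for HCF173 and chr1:5447390-5447509 (plus) for LHCB6. In the first 4 the capitals mark the complement of the start codon of the gene opposite, and the lower-case bases are all opposite its coding sequence. In the LHCB6 row the 60 capitals are opposite coding bases and the 60 lower-case letters are opposite an intron.
Row opposite LHCB1.5: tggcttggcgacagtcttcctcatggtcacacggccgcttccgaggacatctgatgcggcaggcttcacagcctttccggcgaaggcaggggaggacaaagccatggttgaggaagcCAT
Row opposite PSAE1: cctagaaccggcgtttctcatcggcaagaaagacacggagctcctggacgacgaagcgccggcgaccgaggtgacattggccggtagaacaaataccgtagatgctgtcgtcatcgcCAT
Row opposite PSAG: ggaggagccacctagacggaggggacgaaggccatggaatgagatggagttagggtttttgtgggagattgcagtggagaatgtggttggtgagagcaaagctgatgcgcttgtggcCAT
Row opposite HCF173: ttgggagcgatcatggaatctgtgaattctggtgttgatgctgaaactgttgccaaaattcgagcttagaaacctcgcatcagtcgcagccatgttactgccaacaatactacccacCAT
Row opposite LHCB6: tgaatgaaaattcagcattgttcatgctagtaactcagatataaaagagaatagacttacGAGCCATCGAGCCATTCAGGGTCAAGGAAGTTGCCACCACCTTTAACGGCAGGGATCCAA

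The rows differ in how much of the gene opposite they mirror. AT2G08665 (chromosome 2, 14522522 to 14523568, plus strand) is annotated as a long noncoding RNA with 1 exon of 1047 bases, and 1045 of them cover all exon bases of LHCB1.5. AT1G55673 (chromosome 1, 20802971 to 20803449, plus strand) is annotated as coding for an uncharacterized protein, and all of its 479 bases lie opposite PSAG, where they cover 61.4% of the exon bases. AT4G28755 (chromosome 4, 14203626 to 14204377, plus strand), also annotated as coding for an uncharacterized protein, is short, with 285 exon bases in 2 exons. Of these, 263 lie opposite PSAE1 exons and cover 33.0% of them. The other 22 are opposite an intron or beyond the end of PSAE1.

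The remaining 2 rows mirror a small part of their genes. AT1G05253 (chromosome 1, 5723094 to 5723466, minus strand) is a long noncoding RNA of 373 bases, all opposite the first exon of HCF173, of whose exon bases it covers 15.3%. AT1G05207 (chromosome 1, 5447212 to 5447569, plus strand) is a long noncoding RNA of 358 bases, of which 143 lie opposite exons of LHCB6 and 215 opposite its intron. It is the only row of the 5 that does not reach across the start codon. The bases opposite coding sequence make up 76.2%, 90.5%, 80.6%, 39.9% and 82.0% of the rows opposite LHCB1.5, PSAE1, PSAG, LHCB6 and HCF173.

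**Figure D1:**
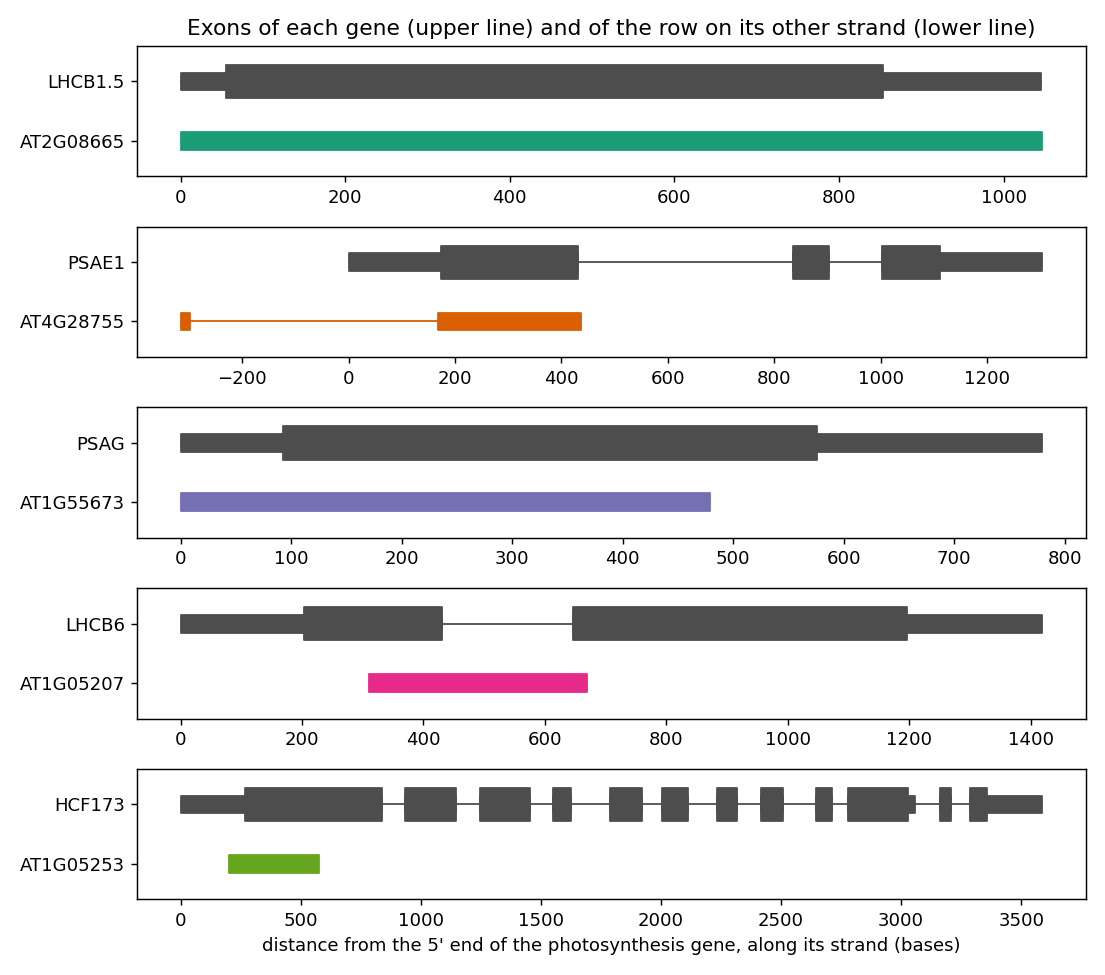
Exon maps of the 5 genes (upper line, coding parts taller) and of the row on the other strand of each (lower line), by distance in bases from the 5′ end of the gene. The row opposite LHCB1.5 runs along the whole gene, and that opposite LHCB6 lies mostly across its intron.

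Fragments can be shared between near copies, and the rows differ in this. The sequence of AT2G08665 had 7 matches elsewhere in the genome that span over 50% of the row. LHCB1.4, the neighbouring antenna gene, matched with 91.4% identity over 806 aligned bases, and the genes LHCB1.1, LHCB1.2 and LHCB1.3 with 89.1%, 89.0% and 89.3%. How fragments were divided among these copies is not stated, so the level of this row is uncertain to that extent. AT4G28755 had 1 match, PSAE2, with 71.3% identity over 275 bases. The rows opposite PSAG, LHCB6 and HCF173 had no match elsewhere. On its own strand, AT2G08665 shares 101 bases with RWA3, a cell wall acetylation gene, which was listed at 0 in all 4 libraries. No other row overlaps any of the 5 apart from the genes opposite.

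Summed FPKM was between 1065963 and 1983185 per library, and rows that overlap a gene on the other strand held 87.8% to 95.4% of it, although they were 27.0% of the annotated rows. Of the 199 abundant rows, meaning a mean level of 1000 FPKM or more, 192 lie opposite a gene. A fragment on 1 kb was worth about 2.03 FPKM in unheated WT, 1.77 in heated WT, 2.19 in unheated miR164OE and 1.23 in heated miR164OE. The labelled tissue was checked in own rows as listed, with the limit on strand given above. The shoot genes RBCS1A, RCA, LHCB1.3, GLDP1 and PSBO1 were above 0 in every library, RBCS1A with 69.7 to 92.1 FPKM. Of the root genes, PYK10 had 21.1 to 41.7 FPKM and SCR 1.49 to 7.21, LRX1 was at 0 in both controls, and EXPA7 and COBL9 were listed at 0 in all 4, so the root markers were seen only in part.

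Together the 5 rows held a large share of every library, and a smaller one after heat. Their share of summed FPKM was 26.5% in unheated WT, 14.5% in heated WT, 28.5% in unheated miR164OE and 13.1% in heated miR164OE. Both heat libraries lie below both control libraries. The rows opposite LHCB1.5, PSAE1 and PSAG made up nearly all of it, with 26.0%, 14.4%, 28.0% and 12.9% in the same order. FPKM gives short rows more weight than their number of fragments does. Weighted by exon length, the share of the 5 rows was 20.04%, 11.4%, 22.9% and 10.9%. The FPKM outside the 5 rows also differed, from 1398558 in unheated WT to 971101 in heated WT and from 1418563 to 926842 in miR164OE.

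**Figure D2:**
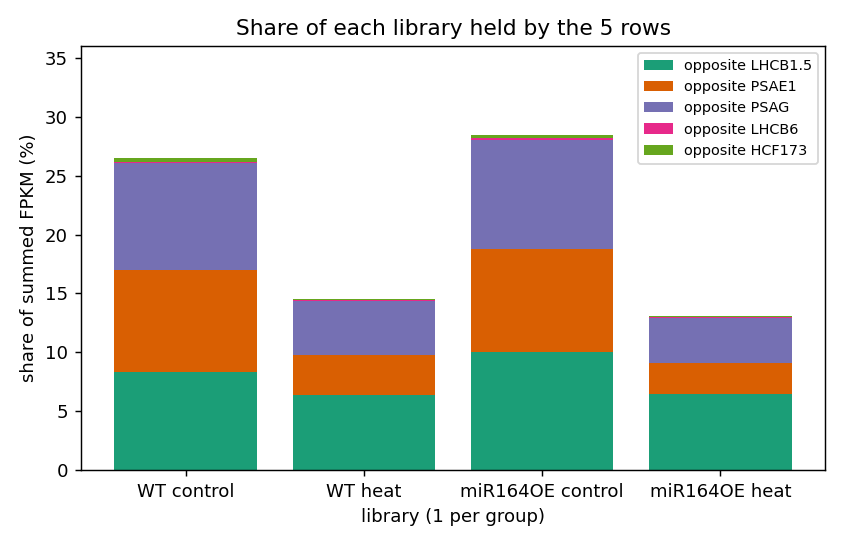
Share of summed FPKM in percent held by each of the 5 rows in the 4 libraries, stacked. The share was 26.5% and 28.5% in the unheated WT and miR164OE libraries and 14.5% and 13.1% after heat.

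The row opposite the LHCII antenna gene LHCB1.5 had 158697 FPKM in unheated WT, 72862 in heated WT, 199133 in unheated miR164OE and 69274 in heated miR164OE. It was the third row of the table in unheated WT and the highest in the other 3 libraries. The row opposite PSAG of photosystem I had 171972, 52342, 182750 and 40225 FPKM in the same order, and was the highest in unheated WT and the second in the others. That opposite PSAE1, the ferredoxin-side subunit, had 164547, 38249, 173586 and 27964 FPKM, and ranked 2nd and 3rd in the controls and 4th in both heat libraries. In each of these 3 rows both heat values lie below both control values. Without heat these 3 rows were close to each other: the LHCB1.5 row was 0.923 and 1.09 times as high as the PSAG row in WT and miR164OE, and 0.964 and 1.15 times as high as the PSAE1 row. With 1 library per group their order there cannot be set against a spread. The next row by mean level, AT3G22121 opposite the cell wall gene CWLP, had 106072, 45970, 95077 and 37878 FPKM.

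The rows opposite HCF173 and LHCB6 were far less abundant per length. The row opposite HCF173, the psbA translation gene, had 5615 FPKM in unheated WT, 814 in heated WT, 6230.2 in unheated miR164OE and 753 in heated miR164OE. It ranked 40th and 36th in the controls and 210th and 216th after heat. The row opposite the minor antenna gene LHCB6 had 2452, 886, 2922 and 905 FPKM and ranked 92nd and 80th in the controls and 187th and 175th after heat. The pair changes order: the LHCB6 row was 0.437 and 0.469 times as high as the HCF173 row in the unheated WT and miR164OE libraries, and 1.09 and 1.201 times as high after heat. In the order of mean level the HCF173 row stands 59th, next to AT3G05905 (3401 FPKM) and AT1G06753 (3342 FPKM), and the LHCB6 row 112th, next to AT2G07015 (1817) and AT4G09815 (1778).

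All 5 rows rest on many fragments. By the approximate worth of a fragment, the row opposite LHCB1.5 corresponds to about 43212 to 95263 fragments per library, that opposite PSAG to about 14202 to 40620.3, and that opposite PSAE1 to about 6175 to 23125. The row opposite HCF173 corresponds to about 172 to 1062 and that opposite LHCB6 to about 180 to 478. The row opposite PSAE1 is under 300 bases long, where FPKM depends strongly on how the length is counted.

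The own rows of the 5 genes were listed at a small part of these levels. LHCB1.5 itself had 178 FPKM in unheated WT, 29.6 in heated WT, 134 in unheated miR164OE and 43.1 in heated miR164OE. PSAE1 had 42.9, 22.6, 61.6 and 32.4 FPKM, and PSAG 19.7, 32.4, 34.3 and 28.1. In LHCB1.5 and PSAE1 both heat values lie below both controls, while in PSAG the groups overlap. LHCB6 had 15.3, 6.40, 14.7 and 6.77 FPKM. HCF173 had 7.502, 1.86, 5.55 and 2.77 FPKM. These own rows correspond to between about 2.57 fragments (HCF173 in heated WT) and 91.7 (LHCB1.5 in unheated WT), so differences of the lower ones are within reach of counting error.

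Set against its gene, the row opposite PSAG was 8750 times as high as the own row in unheated WT and 1614 times in heated WT, and 5322 and 1429 times in miR164OE. The row opposite PSAE1 was 3837 and 1696 times as high as its gene in WT, and 2820 and 864 times in miR164OE. Relative to its row, the own value of PSAG was therefore higher after heat, at 0.0620% in WT and 0.0700% in miR164OE against 0.0114% and 0.0188% without heat. LHCB1.5 went the other way in WT, with 0.112% of its row in control and 0.0406% after heat, and was close in miR164OE with 0.0673% and 0.0622%. For HCF173 the own value was 0.134% and 0.228% of the row in WT and 0.0891% and 0.368% in miR164OE, and for LHCB6 0.625% and 0.722%, and 0.505% and 0.748%. Summed over the 5 genes, own rows were 0.0523% of the opposite rows in unheated WT, 0.0562% in heated WT, 0.0443% in unheated miR164OE and 0.0813% in heated miR164OE.

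**Figure D3:**
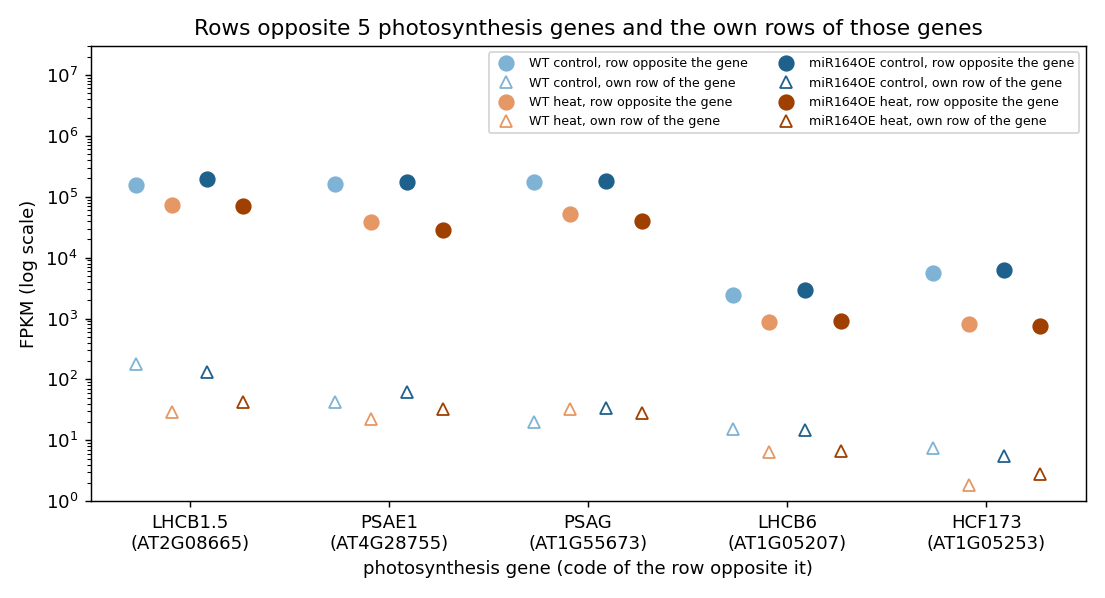
FPKM on a log scale of the row opposite each gene (filled circles) and of the own row of that gene (open triangles) in the 4 libraries. The rows opposite LHCB1.5, PSAE1 and PSAG lie between 27964 and 199133 FPKM, and own rows of the 5 genes between 1.86 and 178 FPKM.

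After heat all 5 rows were lower in WT, and none was less than 2-fold lower. The row opposite HCF173 differed by -2.78 on the log2 scale, which left 14.5% of the control level. The row opposite PSAE1 differed by -2.105 (23.2% left) and that opposite PSAG by -1.72 (30.4%). The antenna rows differed least, LHCB6 by -1.47 (36.1%) and LHCB1.5 by -1.12 (45.9%). Of all 10488 rows averaging 1 FPKM or more, 21.7% were at least 2-fold lower in heated WT, and of the 199 abundant rows 35.2%. The median difference was 0 over all these rows and -0.64 over the abundant ones, against -1.72 over the 5. Since the rows were picked with this contrast known, nothing is read from the count. In whole seedlings fewer cells of a type and less RNA per cell cannot be told apart.

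In miR164OE the order of the 5 rows was the same. The differences were -3.05 opposite HCF173 (12.1% of the control level left), -2.63 opposite PSAE1 (16.1%) and -2.18 opposite PSAG (22.0%). The antenna rows again differed least, with -1.69 opposite LHCB6 (31.0%) and -1.52 opposite LHCB1.5 (34.8%). The background in miR164OE was 17.2% of all rows at least 2-fold lower, and 37.2% of the abundant rows. The median over the 5 was -2.18, against 0.25 over all rows and -0.71 over abundant rows. The heat differences of WT and of miR164OE share no library. The rows were picked with the values of these libraries known, so miR164OE is not an independent repeat and nothing is read from the shared direction.

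The size of these differences depends on how the libraries are brought to a common scale. With nuclear rows brought to a common sum the median of all rows moved from 0 to 0.65 in WT and from 0.25 to 1.01 in miR164OE. The share of higher rows among the 2-fold rows rose with it from 57.8% to 74.7% and from 65.4% to 84.8%, and with the 5 rows left out of the sum it was 70.8% and 80.5%. On the common sum the rows opposite PSAE1 and HCF173 were still at least 2-fold lower in WT and those opposite PSAE1, PSAG and HCF173 in miR164OE, while the row opposite LHCB1.5 differed by only -0.34 and -0.58. Under the 3 rescalings all 5 rows stayed below 0 and below the median of all rows in both genotypes. A rescaling moves all rows of a library together, so their place below that median was nearly fixed in advance. Pseudocounts of 0.1 and 5 hardly move rows of this level and are no check on them. The rows were also picked with these contrasts known, so this is a description.

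**Figure D4:**
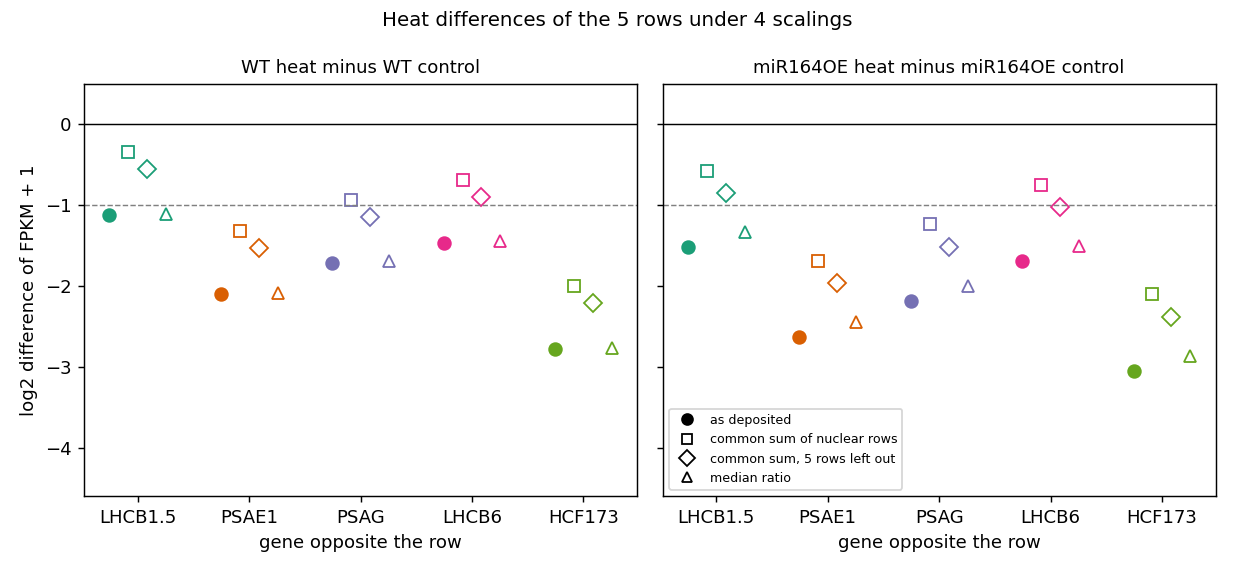
Heat differences (log2 of FPKM + 1) of the 5 rows in WT and miR164OE as deposited and under 3 rescalings. The dashed line marks a 2-fold lower level, and all points lie below 0, from -0.34 to -3.05.

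Ratios between the rows within a library do not depend on the scale, and they show unequal change. The row opposite LHCB1.5 was 0.964 times as high as that opposite PSAE1 in unheated WT and 1.90 times in heated WT. In miR164OE the same ratio was 1.15 without and 2.48 with heat. Of the sum of the 5 rows, the LHCB1.5 row thus held 31.5% in unheated WT and 44.1% in heated WT, and 35.3% and 49.8% in miR164OE. The PSAE1 row held 32.7% and 23.2%, and 30.7% and 20.1%. The HCF173 row was lowered more than any other: the LHCB1.5 row stood 28.3 times above it in unheated WT and 89.5 times in heated WT, and 32.0 and 92.0 times in miR164OE. The 2 rows of photosystem I stayed closer, with PSAE1 over PSAG at 0.957 and 0.731 in WT and 0.950 and 0.695 in miR164OE. This was not particular to them. LHCB1.5 over LHCB6 changed less, at 64.7 and 82.2 in WT and 68.1 and 76.6 in miR164OE. The direction of each of these ratios was the same in both genotypes.

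**Figure D5:**
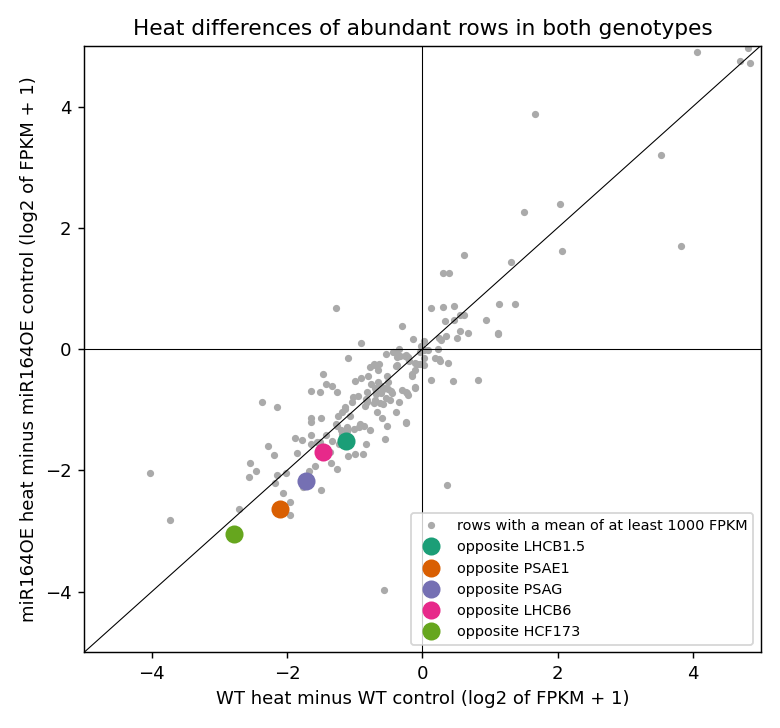
Heat difference in WT (x axis) and miR164OE (y axis), log2 of FPKM + 1, for the abundant rows (mean level of 1000 FPKM or more), with the 5 rows in colour and a line of equal differences. Of 199 rows, 195 are drawn and 4 lie beyond 5 on either axis, and the 5 coloured points lie below 0 on both axes and below the line.

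Between the genotypes the rows differed little. Without heat all 5 were higher in miR164OE, by 0.33 on the log2 scale opposite LHCB1.5, 0.25 opposite LHCB6, 0.15 opposite HCF173, 0.09 opposite PSAG and 0.08 opposite PSAE1. Of the abundant rows, 48.7% were below 0 in this contrast, with a median of 0.007. A change of scale moves the 5 rows together. On the common sum of nuclear rows the differences without heat were 0.27 opposite LHCB1.5, 0.19 opposite LHCB6 and 0.09 opposite HCF173. Those opposite PSAG and PSAE1 were then 0.03 and 0.02. None of the 5 reached 2-fold, as against 35.7% of all rows and 3.52% of the abundant rows (7 of 199) that differed 2-fold in either direction. With heat the rows opposite PSAE1 and PSAG were lower in miR164OE by differences of -0.45 and -0.38, those opposite HCF173 and LHCB1.5 differed by -0.11 and -0.07, and that opposite LHCB6 by 0.03. The 2-fold background with heat was 33.2% of all rows and 5.03% of the abundant rows (10 of 199), and 57.3% of the abundant rows were below 0. The number of rows below 0 with heat was 4 as deposited, 3 with nuclear rows at a common sum and 2 with median ratio scaling. There is no replicate check on differences of this size.

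The heat difference was larger in miR164OE than in WT for all 5 rows. Subtracting WT from miR164OE gave -0.53 opposite PSAE1, -0.47 opposite PSAG, -0.40 opposite LHCB1.5, -0.26 opposite HCF173 and -0.22 opposite LHCB6. Of the abundant rows, 55.8% were below 0 in this subtraction, with a median of -0.05, and 6.53% differed by 2-fold in either direction, as did 50% of all rows. None of the 5 rows reached 2-fold. All 5 stayed below 0 under the 3 rescalings, with medians of -0.24, -0.30 and -0.23 for the common sum, the common sum without the 5 rows and the median ratio.

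The own rows of the 5 genes did not show the same order. In heated WT LHCB1.5 differed by -2.55, HCF173 by -1.57, LHCB6 by -1.14 and PSAE1 by -0.90, and PSAG was higher by 0.70. In miR164OE they differed by -1.61, -0.80, -1.02, -0.91 and -0.28 in the same order of genes. LHCB1.5 thus had the largest difference among the own rows and the smallest among the opposite rows, in both genotypes. Some of these directions depend on the scale. On the common sum of nuclear rows PSAG was higher in both genotypes (1.45 in WT and 0.64 in miR164OE), PSAE1 differed by -0.14 in WT and 0.02 in miR164OE, and HCF173 by -0.05 in miR164OE. With the 5 rows left out of that sum PSAG was again higher in both (1.24 and 0.37), and PSAE1 and HCF173 differed by -0.25 and -0.27 in miR164OE.

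The other genes of the light reactions were taken from 5 lists with 59 genes in all: antenna of photosystem I and of photosystem II, subunits of each photosystem, and assembly factors of photosystem II. Own rows summed to 2242 FPKM in unheated WT, 743 in heated WT, 1797 in unheated miR164OE and 952 in heated miR164OE, so the 5 opposite rows stood 224, 222, 314 and 146 times above all 59 own rows together. The highest own row was that of LHCA4, an antenna gene of photosystem I, with 264 FPKM in unheated WT. At a mean level of 1 FPKM or more, 55 genes were measured, and LHCA5, PSAH1, LPA1 and LPA3 were not. In heated WT 36 of the 55 own rows were at least 2-fold lower and 6 higher, beside 21.7% and 29.8% of all rows, with a median of -1.57. In heated miR164OE 22 were lower and 3 higher, beside 17.2% and 32.5%, with a median of -0.87. Detection was unequal: 14376 rows were above 0 in heated miR164OE against 10108 in its control, and 11557 against 10316 in WT. Whether this bears on the counts of the 2 genotypes was not tested. On the common sum of nuclear rows the miR164OE counts turned to 5 lower and 12 higher, and the WT counts moved to 25 lower and 7 higher.

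By list, own rows at least 2-fold lower in WT were counted beside 21.7% of all rows. They were 12 of 14 antenna genes of photosystem II, 9 of 11 subunit genes of photosystem I and 7 of 11 of photosystem II. Of the antenna genes of photosystem I they were 3 of 5, and of the assembly genes 5 of 14. In miR164OE the numbers were 12, 1, 3, 3 and 3 in the same order, beside 17.2% of all rows. The counts of both subunit lists and of the assembly list there were near or below that share. The own row with the largest difference in WT was LHCB1.4 (-3.93) in the antenna list of photosystem II, LHCA1 (-3.33) in that of photosystem I, PSAE2 (-3.39, listed at 0 in heated WT) and PSBW (-2.53) among the subunits of photosystems I and II, and OHP1 (-2.82, listed at 0 in heated WT) among the assembly genes. PSAE2, the near copy of PSAE1, had 16.1 and 12.0 FPKM in unheated and heated miR164OE.

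Most photosynthesis genes have no row on the other strand in the annotation, which limits what can be read in this way. Of the 59 genes, 23 have such a row and 17 of these averaged 1 FPKM or more. Apart from the 5 rows described, 12 remain, and 6 of them were 2-fold lower and 2 higher in WT, and 7 lower and 1 higher in miR164OE, beside 21.7% lower and 29.8% higher of all rows in WT and 17.2% and 32.5% in miR164OE. The median mean level of the 12 was 2.098 FPKM, where a fragment on 1 kb was worth about 1.23 to 2.19 FPKM. Many of these calls are therefore within reach of counting error. Among opposite rows averaging 5 FPKM or more, the 5 included, 7 of 9 were lower and 0 higher in WT. In miR164OE 8 of the 9 were lower and 0 higher. Of these 12, 11 have under 50% of their exon bases opposite the photosynthesis gene, 9 of them under 10%. As protein-coding genes 11 of the 12 are annotated. These traits do not fully set them apart from the 5. The row opposite LHCB6 has 39.9% of its bases opposite exons, and those opposite PSAE1 and PSAG are annotated as protein-coding. Of the 12, the row most like the 5 in position is AT4G06870, a long noncoding RNA with all of its 220 bases opposite PAM68. It had 140 FPKM in unheated WT, 161 in heated WT, 595 in unheated miR164OE and 179 in heated miR164OE. Its heat difference was 0.20 in WT and -1.73 in miR164OE, so in WT it was not lower. Whether fragments on the 12 rows came from neighbouring genes was not tested.

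Rows with the most similar pattern were sought among the other 194 abundant rows, as the smallest Euclidean distance over the 4 libraries to the mean log2 profile of the 5 rows, each profile centred on its own mean. Nearest was AT1G51402 at a distance of 0.187, with 13812 FPKM in unheated WT, 4056 in heated WT, 14545 in unheated miR164OE and 2991 in heated miR164OE. It lies on chromosome 1 (plus strand), and 308 of its 501 exon bases are opposite AT1G51400, annotated as the Photosystem II 5 kD protein. AT3G07315, whose 249 bases all lie opposite the histone H2B gene HTB9 (AT3G45980), followed at 0.234 with 12856, 3079, 12942 and 2503 FPKM. The third was AT1G06573, opposite AT1G32460, a gene for an uncharacterized protein, at 0.245 with 2319, 513, 2430 and 524 FPKM. The 5 rows themselves lay at distances of 0.164 (PSAG), 0.393 (PSAE1), 0.479 (LHCB6), 0.717 (LHCB1.5) and 0.891 (HCF173), so these 3 rows are nearer to the mean profile than 4 of the 5.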

How the data were processed

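RNA abundance was measured in 4 libraries from Arabidopsis seedlings, 1 per group. As deposited, the values are FPKM, in which the authors scaled fragments to transcript length and to the mapped fragments of the library, in 1 table with 32823 rows. The submitters' processing notes list TopHat, Cufflinks, bcl2fastq 2.1.7 and the genome build TAIR10. The strand setting, the annotation, the depth and the other versions are not stated there.

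Rows were matched by locus code to the RefSeq annotation of TAIR10.1, which held exons for 32538 of them. Of 22477 loci with a single gene, 22475 had the same start and end in both. Exon overlaps, bases opposite coding sequence and the printed sequences came from that annotation and genome. Near copies were searched with blastn 2.17.0. Values were handled with Python 3.11.15 and pandas 2.3.3.

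Differences are log2(FPKM + 1) in 1 library minus the same in another, which understates the change of low rows. A difference of at least 1 in size is called 2-fold. Since each group has a single library, there is no test, no p-value and no spread between plants. Every row was used in the background counts where its mean over the 4 libraries was at least 1 FPKM. The difference and call were run on simulated counts with planted changes, for rows with a higher minimum level. Those counts held no scale difference between libraries and no variation between plants, so the run covers neither. The worth of 1 fragment was taken as the mode of FPKM times exon length over rows of 800 to 2500 bases that overlap no other gene and have under 6 FPKM. It covers no error but gives an approximate scale for counting.

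Other pseudocounts (0.1 and 5), scalings and row minimums were tried, and the closing section gives their effect. Named were the 5 rows and the genes opposite them, rows overlapping them, their neighbours in the order of mean FPKM, the 3 rows with the most similar pattern, list genes with an opposite row of at least 1000 FPKM (a row found by this last part alone is not reported here), and up to 4 genes per photosynthesis list with the largest difference in WT. Also named was the 1 row, among the 12 other opposite rows, with at least 50% of its bases opposite the gene. The members and lists were chosen with earlier results of these data known.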

Additional observations from a re-analysis of the deposited data

Results flagged for a closer look

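Differences that change sign between the conditions were picked out among the 5 rows and the own rows of the genes opposite, where 20 pairs of differences were compared and 9 changed sign. Each group has 1 library, so none of these changes was tested. Among the opposite rows, the genotype difference (miR164OE minus WT) was above 0 without heat and below 0 with heat for 4 rows. It went from 0.33 to -0.07 opposite LHCB1.5, a change of -0.40. The change was -0.53 opposite PSAE1, -0.47 opposite PSAG and -0.26 opposite HCF173. The sign change was absent opposite LHCB1.5 under the 3 rescalings, where the difference with heat was 0.03, 0.01 and 0.07 (common sum, common sum without the 5 rows, median ratio), and opposite HCF173 with the median ratio (0.03).

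Among own rows, the genotype difference went the other way for LHCB1.5, from -0.41 without heat to 0.53 with heat, a change of 0.93. It changed by 0.78 for HCF173 and by 0.12 for LHCB6 in the same direction. For PSAG it changed by -0.97, from 0.77 to -0.20. The own row of PSAG was also higher after heat in WT (0.70) and lower in miR164OE (-0.28), which is the same change of -0.97. On the common sum of nuclear rows, with or without the 5 rows, its heat difference was above 0 in both genotypes (1.45 and 0.64, or 1.24 and 0.37), so that sign change was absent. The own rows of PSAG, HCF173 and LHCB6 correspond to about 2.57 to 17.8 fragments per library.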

How the results depend on the processing

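No paired analysis was possible because each group has 1 library, and leaving out a replicate was not possible for the same reason. No called difference changed sign under any alternative run. Heat differences of the opposite rows fell short of 2-fold in these cases: with a common sum of nuclear rows LHCB1.5 (-0.34 in WT, -0.58 in miR164OE), LHCB6 (-0.69 and -0.75) and, in WT, PSAG (-0.94), and with the 5 rows left out of that sum LHCB1.5 (-0.55 and -0.86) and, in WT, LHCB6 (-0.90). For own rows the common sum gave -0.98 (HCF173), -0.44 (LHCB6) and 1.45 (PSAG) in WT and -0.69 (LHCB1.5) and -0.16 (LHCB6) in miR164OE. The sum without the 5 rows gave -0.63 (LHCB6) and 1.24 (PSAG) in WT and -0.96 (LHCB1.5) and -0.42 (LHCB6) in miR164OE. Median ratio scaling gave -0.85 for LHCB6 in miR164OE. A pseudocount of 5 gave -0.87 (HCF173) and -0.83 (LHCB6) in WT and -0.75 (LHCB6) in miR164OE. The heat difference of the LHCB1.5 own row, miR164OE minus WT, passed 2-fold with the common sum (1.098), the sum without the 5 rows (1.03) and the median ratio (1.098), and that of PSAG with a pseudocount of 0.1 (-1.01).

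Counts of list genes moved as follows. Among opposite rows in WT, 11 lower became 6 with the common sum, 7 with the sum without the 5 rows, 7 with a pseudocount of 5, 7 of 9 among those averaging 5 FPKM or more and 4 of 5 with at least 50% of the row opposite, and 2 higher became 0 under the last 3. In miR164OE, 12 lower became 7 with the common sum and 5 of 5 with at least 50% opposite. The 1 higher became 3 with either sum, 2 with a pseudocount of 0.1, and 0 with a pseudocount of 5, a mean level from 5 FPKM or at least 50% opposite. Among own rows in WT, 36 lower became 25 with the common sum, 28 with the sum without the 5 rows and 27 with a pseudocount of 5. The 6 higher became 1 with a pseudocount of 5 and 2 of the 39 averaging 5 FPKM or more. In miR164OE, 22 lower became 5 and 9 with the 2 sums, and 3 higher became 12 and 5 with them and 0 with a pseudocount of 5 or a mean level from 5 FPKM. The share of the 5 rows weighted by exon length was 20.04%, 11.4%, 22.9% and 10.9% in unheated WT, heated WT, unheated miR164OE and heated miR164OE, and over nuclear rows alone 26.5%, 14.9%, 28.5% and 13.5%. Depth limits the own rows, most of which rest on few fragments. The cause of these shifts was not tested.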
